A study of Mus musculus with 12 samples.

Results

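Arginine and nitric oxide metabolism is described here through 8 listed genes: *Nos2*, *Arg1*, *Arg2*, *Slc7a2*, *Slc7a1*, *Ass1*, *Odc1* and *Gch1*. A gene was taken from every row of the array table that carries its symbol and no other. This gave 7 of the 8 genes on 8 rows, out of 19938 gene symbols with a row of their own and 35556 rows in all. *Odc1* had 2 such rows, and the brighter is given unless stated. *Ass1* shares both of its 2 rows with a predicted gene, so no level of it is given.

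The samples were mononuclear phagocytes sorted from the lamina propria of the mouse cecum, and each sample pooled cells of 3 to 4 C57Bl/6 mice of both sexes aged 6 to 8 weeks. Both sorts took CD45+ cells with CD11c, MHCII and CD11b on the surface and no Ly6c, and resident macrophages (RM) were the F4/80+ and CD11b+ dendritic cells (DC) the F4/80- cells among them. Runx3Δ mice, labelled Runx3 -/-, carry Runx3 fl/fl with CD11c-Cre, which deletes exon 3 in cells that express CD11c and leaves other cells of the host with the gene, and WT littermates are labelled Runx3 +/+. There were 3 WT RM samples (litters 1, 2 and 3), 4 Runx3Δ RM samples (litters 1 to 4), 2 WT DC samples (litters 2 and 3) and 3 Runx3Δ DC samples (litters 1, 3 and 4).

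Arginine enters a macrophage mainly through the cationic amino acid transporters encoded by *Slc7a1* and *Slc7a2*. Inducible nitric oxide synthase (*Nos2*) turns it into nitric oxide and citrulline and needs tetrahydrobiopterin, whose synthesis starts with GTP cyclohydrolase (*Gch1*), while argininosuccinate synthase (*Ass1*) begins the return of citrulline to arginine. The arginases, cytosolic *Arg1* and mitochondrial *Arg2*, split the same substrate into urea and ornithine, and ornithine decarboxylase (*Odc1*) takes ornithine into polyamines. *Nos2* is a classic mark of macrophages activated by interferon-γ and bacterial products, and *Arg1* of macrophages exposed to IL-4 or IL-13.

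All levels are log2 intensities as deposited, and the median level of an array lay between 5.33 and 5.52 over the 12 arrays. A difference is the mean of one group minus that of another on the log2 scale, with its standard error (SE), from 1 limma fit of the 4 groups. "Rose", "fell", "higher in" and "lower in" a group as a call mean a p under 0.05 after Benjamini-Hochberg adjustment over all 35556 rows. Genes that met the study's own thresholds, a change of 1.5-fold or more and an unadjusted p of 0.05 or less, were counted as well. The p in these counts is that of limma and not of the study's analysis of variance, so the genes met need not be those the study lists. The *Runx3* row combines probes along the gene and differed by 0.26 (SE 0.12, limma adjusted p = 0.617) between Runx3Δ and WT RM and by -0.01 (SE 0.14, adjusted p = 0.994) in DC, which does not measure the loss of exon 3. The sorts were checked on the WT samples: 10 of 11 markers of resident macrophages were higher in RM and 9 of 9 markers of CD11b+ DC were higher in DC. Markers of B and plasma cells also stood above 0 in RM minus DC, 7 of 7 measured, with a median of 1.04. Of these, 1 passed after adjustment and 4 met the study's thresholds, against 6.07% and 8.52% of all rows. *Cd79a* had a mean of 9.97 in WT RM and 8.75 in WT DC. The part of such cells in the differences between RM and DC was not tested. In these bulk samples, fewer cells of a type and less RNA per cell cannot be told apart.

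*Nos2*, *Slc7a2* and *Arg1* had higher levels in every Runx3Δ RM sample than in any WT RM sample, and none passed the test after adjustment over all rows. *Nos2* was at 5.64, 5.32 and 5.67 in WT RM and at 7.23, 9.12, 7.90 and 8.71 in Runx3Δ RM. The WT values lie close together, while the Runx3Δ values spread widely and their lowest is that of litter 1. The mean difference was 2.70 (SE 0.47), which is 6.48-fold, with an unadjusted p from limma at place 35 among the 35556 rows and an adjusted p of 0.125. When the table was reduced to 1 row per gene, *Nos2* passed, with a limma adjusted p of 0.0205. That setting had 19938 tests, and the SE of *Nos2* in it was 0.42. What brought about the change in the call was not tested. The WT means of *Nos2* (5.54 in RM and 5.18 in DC) and of *Arg1* (5.46 and 5.20) were near the array medians of 5.33 to 5.52. Folds over WT and differences between WT groups of these 2 genes start from that level. The mean of *Slc7a2* in WT DC (5.52) was at that level as well. Its difference between the genotypes in DC and its step from WT DC to WT RM start there too.

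*Slc7a2*, the inducible arginine carrier, was at 6.85, 5.72 and 7.15 in WT RM and at 7.97, 9.84, 9.01 and 9.44 in Runx3Δ RM. The difference was 2.49 (SE 0.55, limma adjusted p = 0.226), or 5.61-fold. Its lowest value in Runx3Δ RM was again that of litter 1, as for *Nos2*, and its lowest value in WT RM that of litter 2.

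*Arg1* was at 5.71, 5.01 and 5.66 in WT RM and at 6.66, 7.24, 6.79 and 7.78 in Runx3Δ RM, a difference of 1.65 (SE 0.36, limma adjusted p = 0.214), or 3.15-fold. The groups do not overlap. *Arg2* did overlap: it was at 9.21, 7.84 and 8.70 in WT RM and at 9.03, 9.53, 9.30 and 9.61 in Runx3Δ RM, a difference of 0.78 (SE 0.33, limma adjusted p = 0.597). The WT sample of litter 1 lay above the Runx3Δ sample of the same litter, and without WT RM replicate 2 the *Arg2* difference was 0.41.

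The constitutive carrier and the cofactor enzyme had values on the other side of 0. *Gch1* was at 8.24, 8.21 and 7.97 in WT RM and at 7.49, 7.82, 7.89 and 7.85 in Runx3Δ RM, a difference of -0.38 (SE 0.12, limma adjusted p = 0.471). All Runx3Δ values were below all WT values, by a narrow margin. *Slc7a1* was at 9.48, 9.05 and 9.28 in WT RM and at 8.83, 9.08, 9.02 and 8.83 in Runx3Δ RM, and the groups overlap (difference -0.33, SE 0.13, limma adjusted p = 0.543). *Odc1*, the entry to polyamines, was at 9.73, 11.38 and 11.74 in WT RM and at 10.25, 11.46, 11.69 and 11.58 in Runx3Δ RM, and its difference of 0.29 had the SE 0.51 (limma adjusted p = 0.910).

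**Figure D1:**
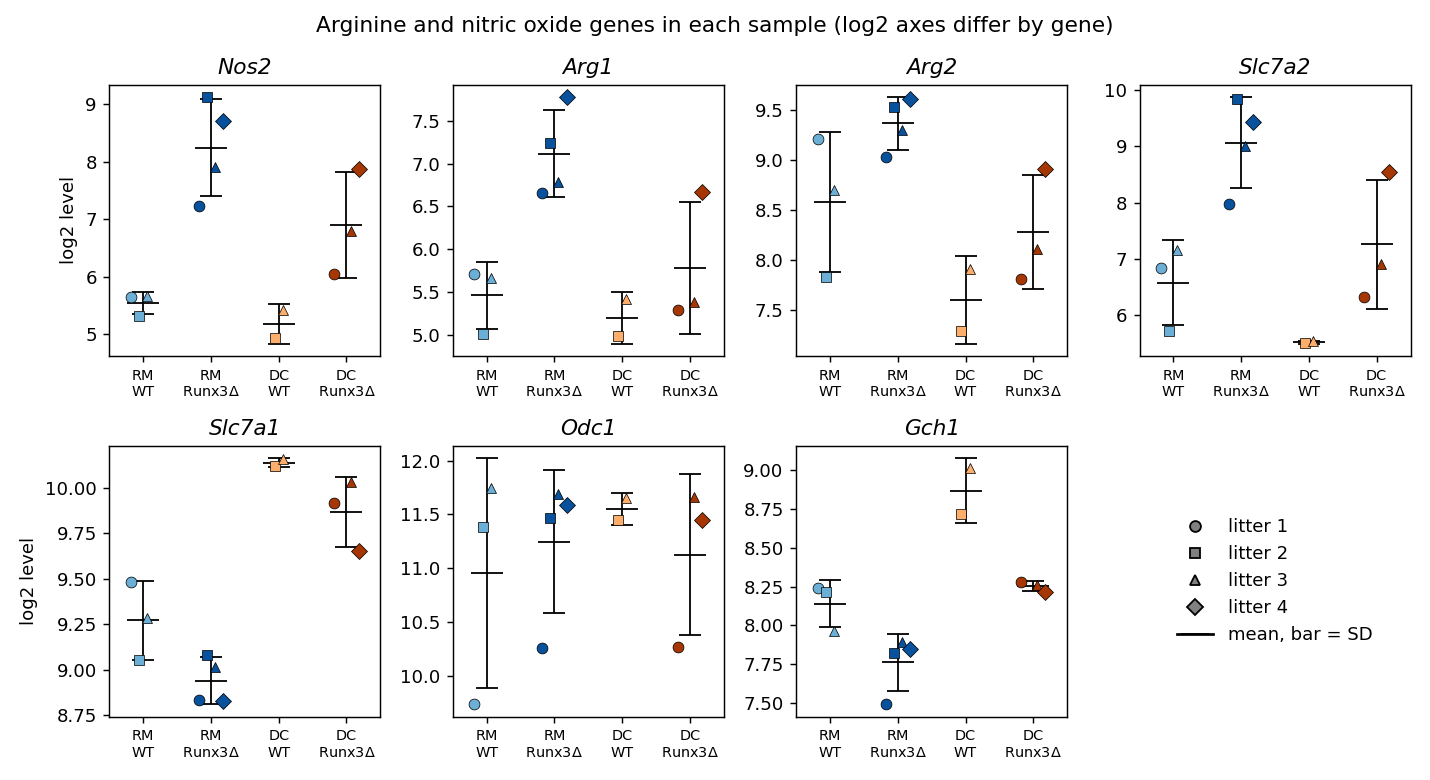
Log2 level of each of the 7 measured genes (vertical axis, its range set by gene) in each of the 12 samples, by cell type and genotype (horizontal axis). Symbols mark the litter, and black lines the group mean with its SD. *Nos2*, *Slc7a2* and *Arg1* are highest in Runx3Δ RM, *Slc7a1* and *Gch1* in WT DC, and the 3 samples of litter 1 are lowest for *Odc1*.

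Of the 7 genes, 0 passed after adjustment in RM, where 5 of all 35556 rows did (0.0141%), and 6 had an unadjusted p under 0.05, as did 2832 of all rows. At the study's thresholds 4 genes stood higher (*Nos2*, *Slc7a2*, *Arg1* and *Arg2*) and 0 lower, where 1.46% of all rows met them in either direction. The groups did not overlap for 4 of the 7 genes, and for 7.55% of all rows. The median difference over the 7 genes was 0.78, and over all rows 0.03. *Nos2*, *Arg1*, *Ass1* and *Slc7a2* are among the genes that the study itself picked on these samples, so their direction in RM is not independent evidence. *Arg2* no longer met the study's thresholds without WT RM replicate 2 or 3, without Runx3Δ RM replicate 2, 3 or 4, with litter as a block, with the methods' analysis of variance or with each array centred on its median, and then 3 genes did.

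Because the numbers in the labels mark litters, Runx3Δ and WT RM can be set against each other within litters 1, 2 and 3. *Nos2* differed by 1.59, 3.80 and 2.23 in these litters, *Slc7a2* by 1.12, 4.11 and 1.86, and *Arg1* by 0.95, 2.23 and 1.12. Litter 2 had the largest difference and litter 1 the smallest for each of these genes. *Arg2* differed by -0.19, 1.69 and 0.60, *Gch1* by -0.75, -0.39 and -0.07, and *Slc7a1* by -0.65, 0.03 and -0.27, so that *Arg2* and *Slc7a1* each went the opposite way in 1 of 3 litters.

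CD11b+ DC showed *Nos2* and *Slc7a2* on the same side of 0 as RM, and *Gch1* with the smallest p of the 7 genes, with none passing after adjustment. *Nos2* was at 4.94 and 5.42 in WT DC and at 6.05, 6.79 and 7.88 in Runx3Δ DC, a difference of 1.72 (SE 0.56, limma adjusted p = 0.548). *Slc7a2* was at 5.51 and 5.54 in WT DC and at 6.33, 6.92 and 8.53 in Runx3Δ DC, a difference of 1.74 (SE 0.66, limma adjusted p = 0.644). Both genes were higher in each Runx3Δ sample than in either WT sample, and litter 4 held the highest value. *Gch1* was at 8.72 and 9.02 in WT DC and at 8.28, 8.26 and 8.22 in Runx3Δ DC, a difference of -0.61 (SE 0.14, limma adjusted p = 0.367), or 1.53-fold lower.

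The arginases overlapped between the genotypes in DC. *Arg1* was at 4.99 and 5.41 in WT and at 5.28, 5.38 and 6.67 in Runx3Δ DC (difference 0.58, SE 0.43, limma adjusted p = 0.863), and 1 sample, that of litter 4 (replicate 3), lay above the rest. Without it the *Arg1* difference was 0.13 and that of *Arg2* 0.36. Without WT DC replicate 1 both were 0.37. *Arg2* was at 7.30 and 7.91 in WT and at 7.82, 8.11 and 8.91 in Runx3Δ DC (difference 0.67, SE 0.40, adjusted p = 0.800). *Slc7a1* was at 10.12 and 10.16 in WT and at 9.92, 10.03 and 9.65 in Runx3Δ DC, with no overlap (difference -0.27, SE 0.15, adjusted p = 0.786). For *Odc1*, the levels were 11.45 and 11.65 in WT and 10.27, 11.66 and 11.45 in Runx3Δ DC (difference -0.42, SE 0.61, adjusted p = 0.955).

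Of the 7 genes, 0 passed after adjustment in DC, and likewise 0 of all rows (0%), while 3 of the genes and 2395 of all rows had an unadjusted p under 0.05. The study's thresholds were met by 3 genes (*Nos2* and *Slc7a2* higher, *Gch1* lower), against 2.13% of all rows. The study's own table of inflammatory genes marks *Nos2* as changed in RM but not in DC. *Gch1* alone met them without WT DC replicate 1, and *Nos2* alone without WT DC replicate 2. The groups did not overlap for 4 of the 7 genes, but 25.7% of all rows did not overlap either in this comparison of 2 against 3 samples. Litter 3 was the litter with DC of both genotypes, and there *Nos2* differed by 1.36, *Slc7a2* by 1.38, *Gch1* by -0.75 and *Arg1* by -0.03.

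The difference between the 2 genotype effects was tested as an interaction, and 0 of the 7 genes passed, as did 0 of all rows (0%), with 0 of the 7 genes and 1391 of all rows at an unadjusted p under 0.05. *Arg1* had the smallest p of the 7 genes: its difference in RM exceeded that in DC by 1.07, with a 95% interval of -0.16 to 2.31. For *Nos2* the excess was 0.97, with an interval of -0.63 to 2.57, and for *Slc7a2* it was 0.75, with one of -1.14 to 2.65. With 1 sample left out at a time, the excess was lowest without Runx3Δ DC replicate 1 (0.54 for *Nos2* and 0.29 for *Slc7a2*) and highest without Runx3Δ DC replicate 3 (1.46 and 1.39). The intervals leave room for an effect in DC as large as in RM and for one far smaller. At the study's thresholds 0 of the 7 genes and 1.95% of all rows had an interaction, and without Runx3Δ DC replicate 3 *Nos2* and *Arg1* did.

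**Figure D2:**
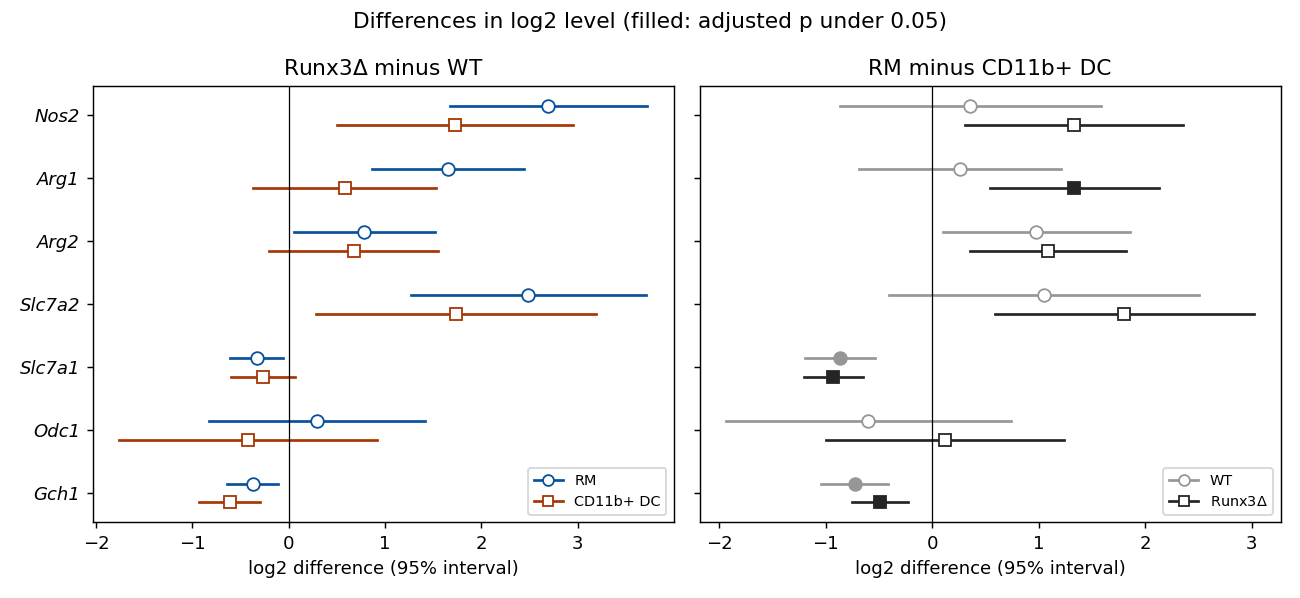
Differences in log2 level (horizontal axes) with 95% intervals from limma for the 7 genes. The left panel gives Runx3Δ minus WT in RM (circles) and in CD11b+ DC (squares), the right panel RM minus CD11b+ DC in WT (grey circles) and Runx3Δ (black squares), and filled symbols passed after adjustment. No symbol is filled on the left, and *Slc7a1* and *Gch1* are filled in both genotypes on the right.

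Between the cell types, *Slc7a1* and *Gch1* were lower in RM than in CD11b+ DC. In WT mice *Slc7a1* was at 9.05 to 9.48 in RM and at 10.12 and 10.16 in DC, a difference of -0.86 (SE 0.15, limma adjusted p = 0.00567), or 1.82-fold lower in RM. *Gch1* was at 7.97 to 8.24 in RM and at 8.72 and 9.02 in DC, a difference of -0.73 (SE 0.14, limma adjusted p = 0.0118). RM and DC do not overlap for either gene. Without WT DC replicate 2, which leaves 1 array in that group, neither passed (limma adjusted p = 0.0573 for *Slc7a1* and 0.140 for *Gch1*).

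Among Runx3Δ samples *Slc7a1* was again lower in RM, by a difference of -0.93 (SE 0.13, limma adjusted p = 0.000969), and this call held in each of the 25 alternatives tried. *Gch1* differed by -0.49 (SE 0.12, limma adjusted p = 0.0302) and *Arg1* by 1.33 (SE 0.36, adjusted p = 0.0461), higher in RM. The *Arg1* call was lost in 15 of 25 alternatives and the *Gch1* call in 8 of 25, which included the litter block for *Gch1* (limma adjusted p = 0.0854). The arginine carrier *Slc7a2* (difference 1.80, SE 0.55, adjusted p = 0.0778), *Arg2* (1.09, SE 0.33, adjusted p = 0.0777) and *Nos2* (1.33, SE 0.47, adjusted p = 0.127) did not pass among Runx3Δ samples.

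In the WT comparison 2 of the 7 genes passed, where 6.07% of all rows did, and in the Runx3Δ comparison 3 of 7, where 7.85% of all rows did. All rows include 12146 without a symbol, and named genes passed more often. With 1 row per gene, 2264 of 19938 genes passed in the WT and 2774 in the Runx3Δ comparison. The study's thresholds were met by 3 genes among WT samples, against 8.52% of rows, and by 5 among Runx3Δ samples, against 7.56%. RM and DC did not overlap for 3 of the 7 genes in either genotype, against 32.4% of rows among WT and 19.5% among Runx3Δ samples. Without Runx3Δ RM replicate 2 or 4, or Runx3Δ DC replicate 1 or 2, *Slc7a1* was the 1 gene of the 7 to pass among Runx3Δ samples. Without Runx3Δ RM replicate 1 or Runx3Δ DC replicate 3, 5 passed.

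Within litters, RM stood below DC for *Slc7a1* in each of the 5 pairs of samples of 1 litter and genotype, by -1.08, -1.07, -0.87, -1.01 and -0.82, and for *Gch1* in each of the 5, by -0.37 to -1.05. *Nos2* stood above in each of the same pairs, by 0.38 and 0.24 in the WT pairs of litters 2 and 3 and by 1.18, 1.11 and 0.83 in the Runx3Δ pairs of litters 1, 3 and 4. *Arg1* followed this order, with 0.03 and 0.25 in the WT pairs and 1.37, 1.40 and 1.10 in the Runx3Δ pairs.

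Ordered by group mean, *Nos2*, *Arg1* and *Slc7a2* ran from WT DC through WT RM and Runx3Δ DC to Runx3Δ RM. For *Nos2* the samples of WT RM and Runx3Δ DC were apart, while those of WT DC and WT RM, and those of Runx3Δ DC and Runx3Δ RM, overlapped. For *Slc7a2* the 1 step without overlap was that from WT DC to WT RM, and for *Arg1* all neighbouring groups overlapped. *Arg2* ran from WT DC through Runx3Δ DC and WT RM to Runx3Δ RM, with overlap at every step. *Slc7a1* and *Gch1* ran the other way, from Runx3Δ RM through WT RM and Runx3Δ DC to WT DC.

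The upstream sequences of *Slc7a1* and *Gch1*, lower together in RM, and of *Odc1* are given because these members have an entry among the RefSeq promoters (GRCm38.p6), as 4 of the 8 genes do. *Nos2*, *Arg1*, *Arg2* and *Slc7a2* have none. Each run is the 250 bases before a start site, written in the direction of the gene. Capitals mark the core of the RUNX motif (TGTGGT or TGCGGT), the TATA box (TATAAA) or the E-box (CACGTG) on either strand.
Slc7a1, first start, chr5:148399905-148400154, minus strand: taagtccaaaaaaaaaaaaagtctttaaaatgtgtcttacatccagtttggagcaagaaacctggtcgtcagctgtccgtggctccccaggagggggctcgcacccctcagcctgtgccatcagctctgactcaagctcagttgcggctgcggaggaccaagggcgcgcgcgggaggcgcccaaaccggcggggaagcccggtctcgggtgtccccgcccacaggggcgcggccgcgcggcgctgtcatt
Slc7a1, second start, chr5:148392816-148393065, minus strand: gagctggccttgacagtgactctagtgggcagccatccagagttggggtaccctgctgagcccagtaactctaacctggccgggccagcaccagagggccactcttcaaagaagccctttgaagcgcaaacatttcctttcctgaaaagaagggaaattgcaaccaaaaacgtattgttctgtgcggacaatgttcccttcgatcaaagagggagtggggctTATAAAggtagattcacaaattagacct
Gch1, chr14:47189414-47189663, minus strand: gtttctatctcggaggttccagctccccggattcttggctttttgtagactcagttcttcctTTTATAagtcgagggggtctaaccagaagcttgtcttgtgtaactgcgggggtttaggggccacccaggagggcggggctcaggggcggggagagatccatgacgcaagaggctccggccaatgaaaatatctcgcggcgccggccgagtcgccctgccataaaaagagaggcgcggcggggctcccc
Odc1, chr12:17544623-17544872, plus strand: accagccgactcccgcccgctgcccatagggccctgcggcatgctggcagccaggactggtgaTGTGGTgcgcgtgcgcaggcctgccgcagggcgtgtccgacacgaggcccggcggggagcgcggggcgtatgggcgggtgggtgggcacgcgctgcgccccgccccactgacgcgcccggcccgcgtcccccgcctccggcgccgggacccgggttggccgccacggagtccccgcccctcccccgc

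A RUNX core was found in 1 of these windows, that of *Odc1*, starting 187 bases before its start site, and 18.6% of the 32851 promoters of the table hold one in a window of this length. The windows of *Slc7a1* and *Gch1* do not have these letters. The second start of *Slc7a1* has a TATA box 28 bases before it, and 1.87% of all promoters hold one on the gene strand 20 to 40 bases before the start. *Gch1* has the reverse complement of one 188 bases before its start, and 12.4% of all promoters hold the motif anywhere in the window on either strand. A gamma-activated site, TTCNNNGAA, the motif of STAT factors, was found 146 bases before the second start of *Slc7a1*, and in 7.02% of all promoters. The loose core of the NF-kB motif, GGGNNNNNCC, counted on both strands with overlapping and palindromic matches, was found 7 times before the first and 0 times before the second start of *Slc7a1*, 5 times before *Gch1*, 1 time before *Odc1* and 6 times before *Ass1*, and 45.8% of all promoters hold at least 1. *Ass1*, whose window is not printed, had an E-box 36 bases before its start, a motif of 6.02% of all promoters. A match of letters is a description and not a bound site.

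*Nos2*, *Slc7a2* and *Arg1* varied together from sample to sample. Among 18612 genes, the gene whose levels over the 12 samples were most like those of *Nos2* was *Slc7a2* (Pearson r = 0.96), followed by *Slamf8* (0.95), *Slc22a19* (0.95), *Ccl24* (0.94) and *Hif1a* (0.94). *Arg1* was most like *Slc7a2* (0.95), *Hif1a* (0.94), *Slc2a1* (0.94), *Ccl24* (0.93) and *Nos2* (0.93), and *Slc7a2* was most like *Nos2* (0.96), *Slc2a1* (0.96), *Arg1* (0.95), *Inhba* (0.95) and *Slamf8* (0.95). The 12 samples share 4 groups and 4 litters, so these values are a description and carry no p. With the group means removed, r was 0.91 between *Nos2* and *Slc7a2*, 0.86 between *Arg1* and *Slc7a2*, 0.84 between *Nos2* and *Arg1* and 0.86 between *Arg1* and *Arg2*. For *Slc7a1* and *Gch1*, r was 0.86 over the 12 samples and 0.28 with the group means removed.

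**Figure D3:**
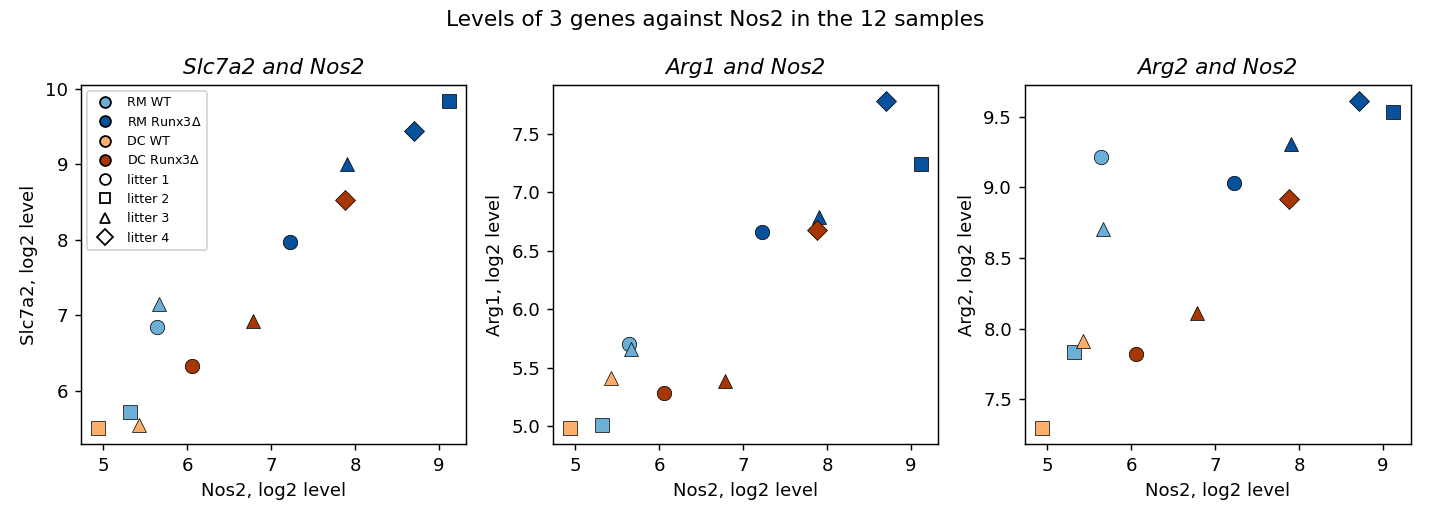
Log2 levels of *Slc7a2*, *Arg1* and *Arg2* (vertical axes) against that of *Nos2* (horizontal axes), 1 point per sample, coloured by group with symbols for litters. In the *Slc7a2* and *Arg1* panels the Runx3Δ RM samples lie at the upper right with the Runx3Δ DC sample of litter 4, whose *Nos2* level was 7.88. *Arg2* is at 9.21 and 8.70 in the WT RM samples of litters 1 and 3, where *Nos2* is at 5.64 and 5.67.

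For *Odc1* the samples of litter 1 stood apart, whatever their genotype or cell type. The 3 samples of litter 1, a WT RM, a Runx3Δ RM and a Runx3Δ DC sample, were at 9.73, 10.25 and 10.27, and the other 9 samples lay between 11.38 and 11.74. The gap was 1.11 on the brighter row and 0.78 on the other. Over all rows, litter 1 lay wholly below the other samples in 270 and wholly above them in 342, which is 1.72% together, and *Odc1* itself was the 1 row with a gap this wide below, while 3 rows had one this wide above. *Odc1* was picked for this description after its values were seen. Without litter 1 its difference was 0.0041 between the genotypes in DC and 0.0117 between the cell types in WT samples. The levels of the other 6 genes in litter 1 overlapped those of the other litters.

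The wider pathway was read from 56 further genes, 48 of which had a row of their own. Of these 48 genes, 0 passed after adjustment between Runx3Δ and WT in RM, and 4 had an unadjusted p under 0.05, against 2832 of all 35556 rows. In DC these counts were also 0 and 4, against 2395 of all rows. The median difference of the 48 genes was 0.00 in RM and -0.01 in DC, with ranges of -0.40 to 0.36 and -0.39 to 0.81. The neuronal and endothelial synthases *Nos1* and *Nos3*, which share the substrate of *Nos2*, differed by 0.11 (SE 0.09) and 0.12 (SE 0.12) in RM (limma adjusted p = 0.810 and 0.853). *Gchfr*, which encodes the feedback regulator of GTP cyclohydrolase, differed by 0.16 (SE 0.12, adjusted p = 0.788), and *Asl*, which follows *Ass1* in the return of citrulline to arginine, by -0.05 (SE 0.13, adjusted p = 0.939). *Nos1*, *Nos3*, *Gchfr* and *Asl* were picked for their place in the pathway with their values known.

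Among these genes the smallest p in RM was that of *Azin1*, which encodes an inhibitor of the antizyme that degrades ornithine decarboxylase, with a difference of -0.40 (SE 0.09, limma adjusted p = 0.222), and its difference in DC was -0.34 (SE 0.11, adjusted p = 0.536). *Oat*, the mitochondrial aminotransferase of ornithine, differed by -0.27 (SE 0.08, adjusted p = 0.426) in RM. In DC the smallest p was that of *Gatm*, which uses arginine and glycine in the first step of creatine synthesis. *Gatm* was at 9.75 and 9.71 in WT DC and at 10.53, 10.37 and 10.73 in Runx3Δ DC, so the groups do not overlap (difference 0.81, SE 0.24, limma adjusted p = 0.514). *Smox*, the spermine oxidase, differed by 0.44 (SE 0.14, adjusted p = 0.536) in DC. In the interaction, *Nags*, whose product makes the activator of the urea cycle's first enzyme, had -0.38 (SE 0.20, adjusted p = 1.00).

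**Figure D4:**
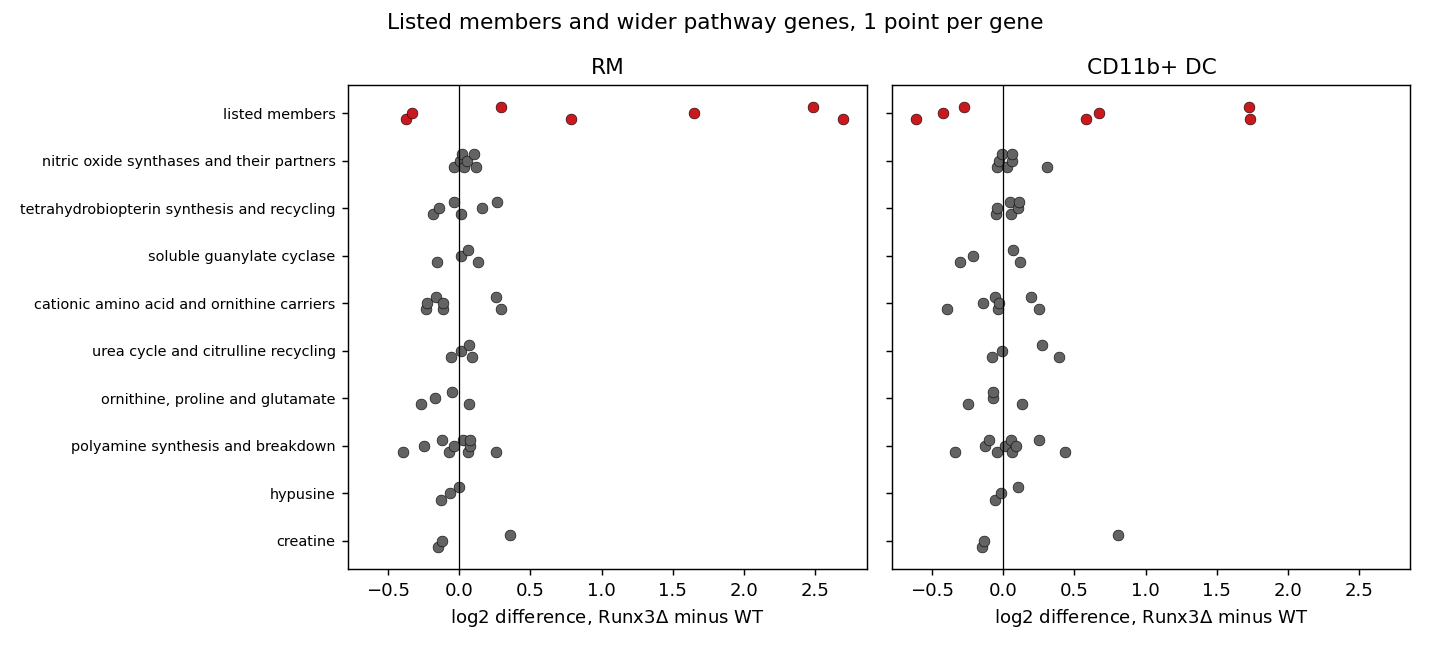
Log2 difference between Runx3Δ and WT (horizontal axes) in RM (left) and CD11b+ DC (right) for the 7 listed genes (red) and 48 further genes of the pathway (grey), 1 point per gene, by role. The grey points lie between -0.40 and 0.36 in RM, while *Nos2*, *Slc7a2* and *Arg1* lie at 2.70, 2.49 and 1.65.

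More of the wider pathway passed between the cell types than between the genotypes. In WT samples 7 of the 48 genes were higher in RM and 1 was lower, and in Runx3Δ samples 5 were higher and 5 lower, against 6.07% and 7.85% of all rows. Named genes passed more often than all rows: with 1 row per gene, 2264 and 2774 of 19938 genes did. The creatine genes *Slc6a8*, the creatine carrier, and *Gatm* were higher in RM in both genotypes. *Slc6a8* was at 6.79, 6.80 and 6.91 in WT RM and at 5.66 and 5.73 in WT DC, a difference of 1.14 (SE 0.13, limma adjusted p = 0.000383), and 1.15 (SE 0.11, adjusted p = 9.92e-05) in Runx3Δ samples. *Gatm* differed by 1.35 (SE 0.24, adjusted p = 0.00640) and 0.90 (SE 0.20, adjusted p = 0.0185).

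*Atp13a2*, which exports polyamines from lysosomes, was also higher in RM, by 1.05 (SE 0.18, limma adjusted p = 0.00497) in WT and 1.11 (SE 0.15, adjusted p = 0.000869) in Runx3Δ samples. *Aldh18a1*, the first enzyme from glutamate towards proline and ornithine, was lower in RM in WT samples, with -1.17 (SE 0.20, adjusted p = 0.00525). Its difference in Runx3Δ samples was -1.10. *Slc7a7*, the light chain of a carrier that exchanges cationic for neutral amino acids, was higher in RM in WT samples by 1.48 (SE 0.26, adjusted p = 0.00646), and was named after its value was seen. In Runx3Δ samples *Slc7a7* differed by 1.05. The WT count of 8 fell to 5 without WT RM replicate 3, 2 without WT DC replicate 1 and 3 without WT DC replicate 2, and the Runx3Δ count of 10 to 6 without Runx3Δ DC replicate 1 or 2.

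Receptors and factors known to induce *Nos2* or *Arg1* were read from a list of 12 and a list of 10 genes, with 10 measured in each. In neither list did any gene pass between Runx3Δ and WT in either cell type, and the medians lay between -0.16 and 0.00. Of all 35556 rows, 5 passed in RM and 0 in DC. *Hif1a*, which encodes the oxygen-sensitive factor that drives glycolytic genes and *Nos2* in macrophages, came closest. It was at 10.68, 10.47 and 10.43 in WT RM and at 11.02, 11.28, 11.07 and 11.22 in Runx3Δ RM, a difference of 0.62 (SE 0.11, limma adjusted p = 0.148). It passed in 2 of 25 alternatives, with 1 row per gene (limma adjusted p = 0.0436) and with the mean of rows (adjusted p = 0.0419). The highest adjusted p was 0.425, with only the compared groups. The study lists *Hif1a* among the up-regulated genes of these RM samples, so its direction in RM is not independent evidence. In DC *Hif1a* differed by 0.28 (SE 0.14, adjusted p = 0.760), and the interaction was 0.34 (SE 0.18, adjusted p = 1.00).

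Of the other inducers, *Ppard*, a nuclear receptor that supports *Arg1*, differed by -0.23 (SE 0.09, limma adjusted p = 0.541) in RM and *Jak1*, a kinase of interferon receptors, by -0.27 (SE 0.10, adjusted p = 0.624) in DC. *Epas1*, which encodes HIF-2α, had the interaction 0.59 (SE 0.31, adjusted p = 1.00) and *Jak1* 0.22 (SE 0.13, adjusted p = 1.00). Between the cell types, where far more of all rows passed than between the genotypes, 2 of the 10 measured inducers of *Nos2* passed in WT and 5 in Runx3Δ samples, and 2 of the 10 of *Arg1* in each, against 6.07% and 7.85% of all rows. As given above, named genes passed more often than all rows. *Tlr4*, the receptor of lipopolysaccharide, and *Cebpb*, a factor for *Arg1*, were higher in RM among Runx3Δ samples, by 1.48 (SE 0.18, adjusted p = 0.000506) and 1.11 (SE 0.14, adjusted p = 0.000633). The order was the same in WT samples, where *Tlr4* had a mean of 7.05 in RM and 5.95 in DC, and *Cebpb* of 9.03 and 8.23. *Ppard* was higher in RM by 0.76 (SE 0.11, adjusted p = 0.00150) in WT and 0.64 (SE 0.09, adjusted p = 0.00110) in Runx3Δ samples, and *Jak2*, which carries the interferon-γ signal, was lower in RM by -0.90 (SE 0.12, adjusted p = 0.00120) and -0.73 (SE 0.10, adjusted p = 0.00118).

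Markers of other cells were set beside these genes. The mean log2 level of 10 measured markers of T and NK cells was 5.75 to 6.39 in WT and 6.22 to 6.87 in Runx3Δ RM, and 8 of the 10 differences were above 0, with a median of 0.28. After adjustment 0 of the 10 passed, where 5 of all 35556 rows did. That of 10 neutrophil markers reached at most 5.40 in WT and 5.35 in Runx3Δ RM, with 9 of 10 above 0 and a median of 0.14. The markers differed in level: *S100a8* was at a mean of 4.33 in WT and 4.51 in Runx3Δ RM, and *Csf3r* at 9.62 and 9.84. *Retnlg*, the 1 marker below 0, was at 6.68 and 6.10. In DC the T and NK cell markers were at 5.83 to 5.93 in WT and 6.06 to 6.10 in Runx3Δ samples, with 8 of 10 differences above 0 and a median of 0.39. The 1 T and NK cell marker at the study's thresholds in DC went the other way. It was *Cd2*, with means of 8.81 in WT and 7.59 in Runx3Δ DC. Of the resident macrophage markers, 1 met those thresholds in DC and was lower in Runx3Δ samples. The 11 markers of resident macrophages had a mean of 10.91 to 11.46 in WT and 10.85 to 11.35 in Runx3Δ RM, with 10 of 11 differences below 0 and a median of -0.10, and 10 of 11 markers of stroma and endothelium were also below 0, with a median of -0.20. The mean of 14 epithelial markers was 5.41 to 5.92 in WT and 5.31 to 6.00 in Runx3Δ RM. At the study's thresholds, *Cx3cr1* stood lower among the markers of resident macrophages, with means of 10.44 in WT and 9.85 in Runx3Δ RM. Of the monocyte markers 1 met them in RM, with a difference of 0.80, and of the eosinophil markers 1, with -0.82. Among the markers of CD11b+ DC, 1 stood higher and 1 lower in RM. In the other lists 0 markers met them in RM. In DC the epithelial markers were at 5.30 to 5.57 in WT and 5.47 to 5.93 in Runx3Δ samples, with 12 of 14 differences above 0, a median of 0.27, a highest value of 1.69 and 2 at the study's thresholds. The markers of stroma and endothelium had 9 of 11 differences below 0 in DC, with a median of -0.46, and 2 met those thresholds, and the markers of CD11b+ DC themselves had 7 of 9 below 0, with a median of -0.27, and 2 met them. The neutrophil markers had 7 of 10 differences above 0 in DC, up to 1.27, with 2 at those thresholds. The 6 measured monocyte markers ran from -2.02 to 0.66, with 2 at those thresholds, each lower in Runx3Δ samples. After adjustment 0 markers of any of these lists passed between the genotypes in DC, but neither did any of the 35556 rows, so this count does not tell the markers from other rows. The part of these markers in the values of *Nos2*, *Slc7a2*, *Arg1* and *Gch1* was not tested.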

How the data were processed

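RNA of sorted cecal RM and CD11b+ DC was hybridized to 12 Affymetrix mouse arrays. In Partek, the authors summarized each row by RMA, corrected for GC content. The log2 values they deposited were analysed without further normalization. The platform annotation is that of a gene-level mouse array, while the methods name an exon array, and the notes of the submitters name mm9. Of 35556 rows, 21789 carried 1 gene symbol, 1621 several and 12146 none, of which 6617 lead the table. What these unnamed rows measure was not established. A gene with several rows was represented by the brightest. The number of arrays limits the precision. The samples of a group are pools of mice of different litters.

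One limma model (version 3.58.1, R 4.3.3) held the 4 groups and gave 5 comparisons, with Benjamini-Hochberg adjustment over all rows at 0.05. The rule for named genes took every member, up to 6 genes per comparison past the threshold from the wider and inducer lists, otherwise up to 4 with the smallest p, and the 5 genes most correlated with *Nos2*, *Arg1* and *Slc7a2*. Genes named outside it are marked. Members and lists were chosen with earlier results of these data known. Litter numbers in the labels pair the samples. After removal of group means, the median correlation was 0.0958 (-0.0412 to 0.358) within 13 pairs from 1 litter and -0.0347 across litters (40 pairs). In the 3 pairs of WT and Runx3Δ RM of 1 litter it was 0.0342 (-0.0412 to 0.207).

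Alternatives were litter as a fixed block or a random effect (statmod 1.5.0), the compared groups alone, the methods' one-way analysis of variance, array weights, a robust prior with an intensity trend, quantile normalization, a filter that kept rows with a mean log2 level of 5 or more, 1 row per gene, rows averaged per gene, median centring, removal of the unnamed leading rows, and omission of each sample. The omission of litter 1 and the other *Odc1* row were added after seeing the data. The fit was run on simulated data with independent noise in every sample and no litter effect, so it was not tested under such an effect. Figures were drawn with matplotlib. Markers of monocytes (mean log2 level 8.09 to 8.78 in RM), eosinophils (5.05 to 5.50), B and plasma cells (7.88 to 9.13) and stroma and endothelium (6.36 to 7.00) were also read, and 0 of their genes passed between Runx3Δ and WT RM, where 5 of all 35556 rows did.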

Additional observations from a re-analysis of the deposited data

Results flagged for a closer look

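*Odc1* and *Gch1* each had 1 sample far from the others of its group. In Runx3Δ RM, replicate 1, of litter 1, was the lowest for *Odc1*, and its gap to the nearest sample was 0.844 of the range of the 4 samples. The same sample was the lowest for *Gch1*, where its gap was 0.830 of the range. This was looked for in the 7 genes in the 4 Runx3Δ RM samples, and chance gives such a gap in about 1 of 20 groups. Without that sample the difference between Runx3Δ and WT RM was 0.63 (limma adjusted p = 0.892) for *Odc1*, against 0.29 with it, and -0.28 (adjusted p = 0.672) for *Gch1*, against -0.38.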

How the results depend on the processing

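The differences of *Nos2*, *Slc7a2*, *Arg1*, *Arg2*, *Slc7a1* and *Gch1* kept their sign between Runx3Δ and WT, in RM and in DC, in all 25 alternatives. The count of members passing in RM was 0, and 1 (*Nos2*) with 1 row per gene, with the mean of rows and without the unnamed leading rows, where the limma adjusted p was 0.0205, 0.0225 and 0.0496 (range over all alternatives 0.0205 to 0.378). Among WT samples the 2 cell type calls became 0 with only the compared groups, and 0 to 2 with 1 sample left out. The wider count of 8 became 4 with only the compared groups and 2 to 9 with 1 sample left out. Among Runx3Δ samples the 3 calls became 1 with the methods' analysis of variance and without litter 1, 5 with the filter, with 1 row per gene, with the mean of rows and without the leading rows, and 1 to 5 with 1 sample left out. The wider count of 10 became 6 to 12. At the study's thresholds the count in DC was 1 to 3 with 1 sample left out, and in the interaction it was 1 (*Arg1*) with litter as a replicate block and 0 to 2 with 1 sample left out. The block ended the *Gch1* call between Runx3Δ cell types (-0.49, limma adjusted p = 0.0854) and changed no other call of a named gene. Values that turned their sign were those of *Odc1*: in DC 0.0725 with the block and 0.0041 without litter 1, and between WT cell types 0.0117 without litter 1. With 1 sample left out *Odc1* ran from -0.31 to 0.69 in RM, -0.69 to 0.0041 in DC, -0.99 to 0.0117 between WT and -0.31 to 0.45 between Runx3Δ cell types. The interaction of *Slc7a1* turned to 0.0479 with array weights and 0.10 without litter 1, and ran from -0.17 to 0.0443 with 1 sample left out, and that of *Arg2* from -0.26 to 0.43. With 1 sample left out, *Arg2* ran from 0.41 to 1.10 in RM and 0.36 to 0.98 in DC, and in DC *Arg1* ran from 0.13 to 0.83, *Slc7a2* from 1.10 to 2.20 and *Slc7a1* from -0.35 to -0.17. Over all rows, 5 passed in RM, and 0 to 63 over the alternatives (0 with the methods' analysis of variance and with only the compared groups, 47 with 1 row per gene, 63 without WT RM replicate 1). In DC 0 passed, and up to 7 without WT DC replicate 2. Between the cell types 2160 rows passed in WT samples (883 with only the compared groups, 3294 without litter 1) and 2791 in Runx3Δ samples (1562 without Runx3Δ DC replicate 2). Rows at the study's thresholds in RM split into 259 higher and 260 lower, and into 208 and 345 with median centring. Some settings had fewer tests or samples, and the causes of the changes were not tested. Leaving out a WT DC sample leaves 1 array there, assumed to vary like the other groups.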
